A study of Mus musculus with 4 samples.

Results

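Chemokines are small secreted proteins that attract leukocytes along their concentration gradient through G protein-coupled receptors on the responding cell. They are grouped by the spacing of the first cysteines of the mature protein, which are adjacent in the CC ligands (*Ccl* genes) and separated by a single residue in the CXC ligands (*Cxcl* genes). Some are homeostatic and are made constantly to position lymphocytes and progenitor cells, whereas others are inflammatory and are induced within hours by cytokines, microbial products or tissue injury. In the male reproductive tract they bear on how resident leukocytes are distributed around the duct, where sperm must be tolerated and ascending microbes met.

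The chemokine ligands described here are 10 of the 16892 genes of the count matrix, taken by gene symbol: *Ccl2*, *Ccl7*, *Ccl11*, *Ccl12*, *Ccl3*, *Cxcl1*, *Cxcl2*, *Cxcl12*, *Cxcl13* and *Cxcl14*. The list was chosen with earlier results of these data known. Counts of members given beside all genes therefore describe the list and do not test it. The matrix held 35 chemokine ligands in all, these 10 included. Levels were taken in each of the 34 cell populations of the table of cells that the authors deposited, and in each library. Most populations carry other names here than in that table. Secretory stromal cells are AngryVasStromal there, low-UMI stromal cells StromalIL6, stem-like stromal cells StemStromalVas and myofibroblasts Connective. Principal populations were renumbered to follow the paper by matching their numbers of cells.

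The data are droplet single-cell RNA-Seq of the mouse epididymis, the coiled duct in which sperm mature, and of the vas deferens, the tube that carries them on. The groups compared were the caput, corpus and cauda epididymis and the vas deferens, with 1 library per region (4 in all). Each library was made from a pool of 8 tissue pieces taken from the same 4 FVB/NJ males aged 10 to 12 weeks, and the labels give neither a treatment nor an engineered allele. No library was replicated, so that no difference between regions could be tested, and the spread between animals is not known.

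The 4 libraries held 1433 cells and 4408989 unique molecular identifiers (UMIs) for the caput, 2325 cells and 6602962 UMIs for the corpus, 1616 cells and 4882822 UMIs for the cauda, and 3506 cells and 10744928 UMIs for the vas deferens. The median cell had between 1433 and 2207 UMIs by library. The authors' correction for ambient RNA had removed 3.54% of all UMIs before deposit. Between libraries, 43 cell barcodes were shared, and 178 of the 8880 cells were called doublets and kept unless stated. Levels are given as UMIs of a gene per 1000000 UMIs of a group of cells (UPM). Each molecule is counted once at its 3′ end, so that levels of different genes are compared per molecule and do not scale with gene length. Brackets hold 95% intervals that cover counting error only, by the exact Poisson method for levels, by the Clopper-Pearson method for shares, and by the exact binomial split of the UMIs for ratios.

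The reading frames around the first cysteine codons are shown first because this spacing defines the CC and CXC families. The windows below are coding strand sequence of GRCm38 (GENCODE M21 transcripts), 5′ to 3′, with the first cysteine codons in capitals.
Ccl12: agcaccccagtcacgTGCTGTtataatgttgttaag
Cxcl1: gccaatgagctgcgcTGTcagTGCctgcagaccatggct
Cxcl2: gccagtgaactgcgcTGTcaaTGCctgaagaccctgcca
Cxcl12: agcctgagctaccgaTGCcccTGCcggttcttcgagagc
Cxcl13: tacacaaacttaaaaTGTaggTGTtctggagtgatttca
Cxcl14: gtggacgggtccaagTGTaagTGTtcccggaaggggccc
The cysteine codons were adjacent in *Ccl12* and had 1 codon between them in the 5 *Cxcl* members shown. Codons for glutamate, leucine and arginine, the ELR motif of the neutrophil-attracting CXC ligands, stood directly before them in *Cxcl1* and *Cxcl2* and in none of the other sequences printed.

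On GRCm38.p6 (RefSeq) the members lay in a few clusters. The MCP-type CC genes were neighbors on chromosome 11, with *Ccl2* at chr11:82035577-82037452, *Ccl7* at chr11:82045712-82047525, *Ccl11* at chr11:82057832-82062955 and *Ccl12* at chr11:82101845-82103399. *Ccl3* lay further along the same chromosome at chr11:83647843-83649378. *Cxcl1* (chr5:90891245-90893121) and *Cxcl2* (chr5:90903899-90905938) were adjacent on chromosome 5, which also carries *Cxcl13* (chr5:95956939-95961068). *Cxcl12* (chr6:117168535-117181368) and *Cxcl14* (chr13:56288643-56296811) stood alone. *Ccl2*, *Ccl7*, *Ccl11* and *Ccl12* are paralogs, and reads that fitted several places were not counted, so that a split of reads among them is uncertain.

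Most chemokine transcripts came from stromal cells and macrophages, and very few from the secretory epithelium. Of the 10 members, 6 were highest in a population of stromal cells, against 19.8% of the 11614 genes that could be ranked, and 3 were highest in an immune population, against 5.51%. *Ccl2*, *Ccl7*, *Ccl11*, *Cxcl1* and *Cxcl12* peaked in secretory stromal cells, a vas deferens population rich in *Il6* and *Vcam1*, where 2.81% of genes peaked. *Cxcl14* peaked in fibroblasts. *Ccl3*, *Cxcl2* and *Cxcl13* peaked in macrophages, where 2.42% of genes did. The paper itself names *Ccl2*, *Ccl7*, *Cxcl1*, *Cxcl2* and *Cxcl12* for the secretory stromal cells and *Ccl3* for macrophages. The members were chosen with such results known, so these counts describe the chosen genes and test nothing. Of 25 further chemokine ligands, 13 were highest in an immune and 1 in a stromal population. *Ccl12* had its top level in the 15 basal-macrophage cells, but with 37 UMIs there the interval of its ratio to macrophages held 1. That population is grouped with basal cells in the table of cells, whereas its summed macrophage markers (8 genes) stood at 24007 UPM and its basal markers (4 genes) at 257 UPM, against 10438 UPM and 16.3 UPM in macrophages and 29.8 UPM and 3483 UPM in main basal cells. No member was highest in a principal, clear, muscle or endothelial population.

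**Figure D1:**
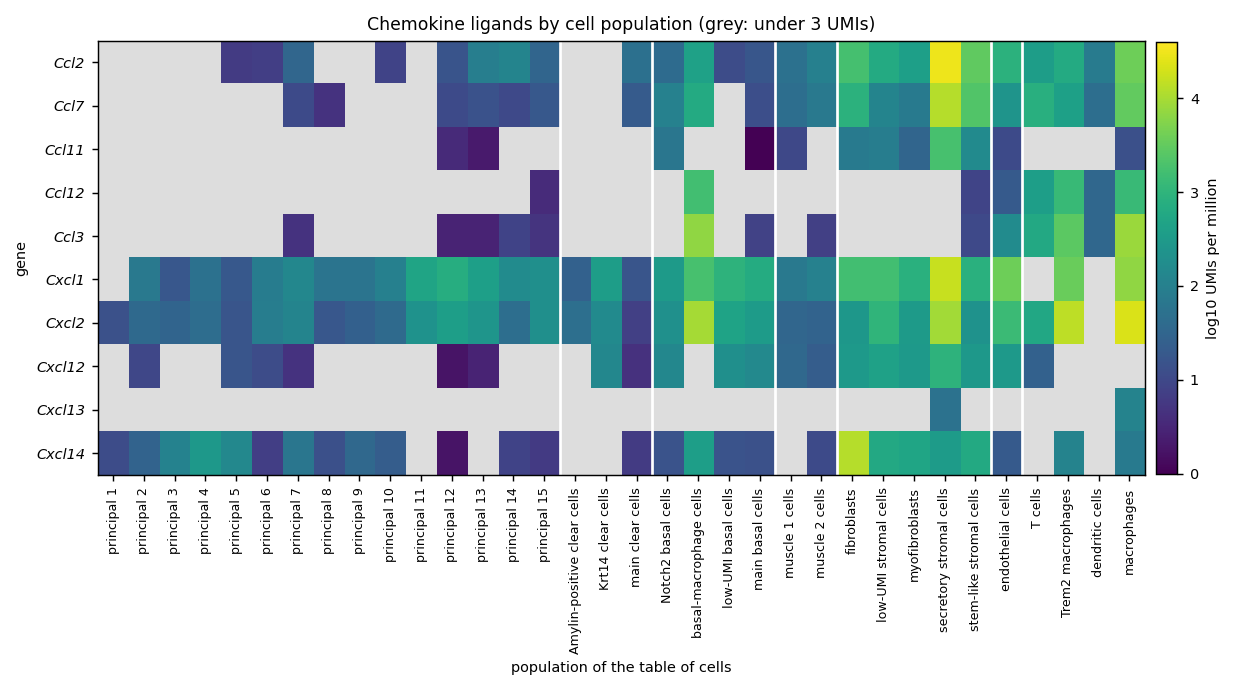
Level of each of the 10 chemokine ligands (rows) in each of the 34 cell populations (columns, with white lines between cell types), as log10 UPM by color; grey squares held fewer than 3 UMIs of the gene. Each row has its brightest square in a stromal or macrophage-marked population, such as secretory stromal cells for *Ccl2* (30047 UPM), macrophages for *Cxcl2* (21609 UPM) and fibroblasts for *Cxcl14* (12447 UPM).

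The labels of the populations that carry these results were checked against marker genes. Secretory stromal cells had 23733 UPM of the 6 stromal markers and 7.40 UPM of the 8 macrophage markers, with *Csf1r*, *Cd68*, *C1qa* and *Lyz2* at 0 UMIs. Macrophages had 13 UPM of the stromal markers, with *Col1a1*, *Col3a1* and *Dcn* at 0. The 5 neutrophil markers summed to 26.1 UPM or less in both populations.

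A member was counted as restricted to a cell type where it had at least 20 UMIs in that type and at least 4 times the level of each of the 6 other types. By this rule 6 of the 10 members were restricted to 1 of the 7 cell types, against 10.4% of the 12868 genes with enough UMIs. *Ccl11* and *Cxcl14* were restricted to stromal cells and *Ccl12*, *Ccl3*, *Cxcl2* and *Cxcl13* to immune cells. The rule concerns levels, since stromal cells held more UMIs than immune cells of *Cxcl2* (39.0% against 37.3%) and *Cxcl13* (47.4% against 44.9%). The *Cxcl13* call rested on 35 UMIs in 3 immune cells and was lost at a minimum of 50 UMIs. *Ccl2*, *Ccl7*, *Cxcl1* and *Cxcl12* were not, since each had another cell type within 4-fold of its highest. Because the populations were defined on the same counts, these values describe the populations and do not test them.

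*Ccl2* encodes MCP-1, the ligand of CCR2 that draws monocytes, and was the most abundant member with 29057 UMIs (rank 142 of all genes). Of these, 91.0% were in stromal cells and 69.9% in the 226 secretory stromal cells. Its level was 30047 UPM in secretory stromal cells (29635–30463), 3828 UPM in macrophages (3612–4054), 3023 UPM in stem-like stromal cells (2923–3125), 1781 UPM in fibroblasts and 900 UPM in endothelial cells. Secretory stromal cells thus stood 7.85 times above the next population (7.40–8.33), and each further step in this order was also larger than its counting error. The UMIs were spread over the population, since the cell with the most held 2.26% of them.

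*Ccl7* encodes MCP-3, a ligand of CCR1, CCR2 and CCR3, and followed the same order. It had 13431 UMIs, 87.7% of them in stromal cells. By cell type it stood at 1890 UPM in immune and 1815 UPM in stromal cells, which were not separable (ratio 1.04, 0.978–1.11). The level was 12455 UPM in secretory stromal cells (12191–12725), 3182 UPM in macrophages (2986–3389), 2221 UPM in stem-like stromal cells and 903 UPM in fibroblasts. Secretory stromal cells were 3.91 times above macrophages (3.66–4.19). *Ccl2* outnumbered *Ccl7* in all of these populations, by 2.41 UMIs to 1 in secretory stromal cells, by 1.36 in stem-like stromal cells, by 1.20 in macrophages and by 5.14 in myofibroblasts (4.54–5.85).

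*Ccl11* encodes eotaxin, the CCR3 ligand that attracts eosinophils. It had 1681 UMIs, of which 95.3% were in stromal cells and 72.9% in secretory stromal cells. Its level there was 1813 UPM (1713–1918), against 162 UPM in stem-like stromal cells, a ratio of 11.2 (9.57–13.1). Stem-like stromal cells in turn were above low-UMI stromal cells at 88.9 UPM, which could not be told from fibroblasts at 79.6 UPM (ratio 1.12, 0.655–1.87). Within secretory stromal cells *Ccl11* was uneven, with 38.0% of its UMIs in 5 cells, against 8.25% for *Ccl2*. Macrophages separated it from its paralogs, with 294 *Ccl2* UMIs for each *Ccl11* UMI (114–1079), against 16.6 in secretory stromal cells (15.6–17.6).

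*Ccl12* encodes MCP-5, the mouse ligand of CCR2 made by macrophages, and showed the reverse placement. Of its 618 UMIs, 87.9% were in immune cells. The level was 1583 UPM in basal-macrophage cells (1115–2182), 1301 UPM in macrophages (1176–1435) and 1260 UPM in *Trem2* macrophages (1024–1534), and neighbors in this order did not differ beyond counting error. Secretory stromal cells had 0 *Ccl12* UMIs beside 20300 of *Ccl2*, and macrophages had 399 beside 1174. The 42 UMIs of *Ccl12* in T cells all came from 1 corpus cell, which had 50 UMIs of macrophage markers and 0 of T cell markers. Likewise the 10 UMIs in stem-like stromal cells lay in 1 cell with 60 UMIs of macrophage markers.

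*Ccl3* encodes MIP-1α, an inflammatory ligand of CCR1. It had 3139 UMIs, 87.5% of them in immune cells and 78.5% in macrophages. Its level was 8031 UPM in macrophages (7717–8355), 6847 UPM in basal-macrophage cells (5827–7994) and 2737 UPM in *Trem2* macrophages (2384–3129), the first pair not separable by their ratio of 1.17 (0.999–1.39). In endothelial cells it stood at 164 UPM, but 134 of the 137 UMIs were in 5 cells that held 92 UMIs of macrophage markers and 0 of endothelial markers. In main basal cells it was 8.04 UPM, with 30 of 41 UMIs in 2 cells.

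The remaining members are CXC ligands. *Cxcl1* (KC) and *Cxcl2* (MIP-2) bind CXCR2 and recruit neutrophils. *Cxcl1* had 29055 UMIs, nearly as many as *Ccl2*, but was shared more widely, with 57.6% in stromal, 13.7% in basal, 11% in endothelial, 8.69% in principal and 8.29% in immune cells. Its level by cell type was 4139 UPM in 195 immune, 3833 UPM in 245 endothelial and 2580 UPM in 2222 stromal cells. Its level was 16693 UPM in secretory stromal cells (16387–17004), 6958 UPM in macrophages (6666–7260), 3833 UPM in endothelial cells (3702–3968) and 3476 UPM in *Trem2* macrophages. The first step was 2.40-fold (2.29–2.51) and the second 1.82-fold (1.72–1.92), whereas endothelial cells and *Trem2* macrophages were not separable (ratio 1.10, 0.974–1.25).

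*Cxcl2* had 20797 UMIs, divided between stromal cells (39.0%) and immune cells (37.3%). The order of its populations was led by macrophages at 21609 UPM (21092–22136), with *Trem2* macrophages at 13622 UPM, basal-macrophage cells at 9543 UPM, secretory stromal cells at 9173 UPM and endothelial cells at 1374 UPM. Macrophages were 1.59 times above *Trem2* macrophages (1.49–1.69), and the gap from secretory stromal to endothelial cells was 6.67-fold (6.27–7.11). The balance of the pair differed between lineages. *Cxcl1* outnumbered *Cxcl2* by 1.82 to 1 in secretory stromal cells (1.76–1.88), 2.79 in endothelial cells (2.61–2.99) and 2.00 in main basal cells (1.89–2.13), while in macrophages there were 0.322 *Cxcl1* UMIs per *Cxcl2* UMI (0.307–0.338).

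The sequences before the starts of *Cxcl1* and *Cxcl2* are shown because each of these neighboring genes had the other as its closest gene in level across populations. Those of *Ccl3* and *Ccl12* are shown because both were concentrated in macrophages. Each line gives the 250 bases before the annotated start on the strand of the gene, 5′ to 3′, from RefSeq on GRCm38.p6, for *Cxcl1* chr5:90890995-90891244 (+), *Cxcl2* chr5:90903649-90903898 (+), *Ccl3* chr11:83649379-83649628 (−) and *Ccl12* chr11:82101595-82101844 (+). Capitals mark matches to the motifs named after them.
Cxcl1: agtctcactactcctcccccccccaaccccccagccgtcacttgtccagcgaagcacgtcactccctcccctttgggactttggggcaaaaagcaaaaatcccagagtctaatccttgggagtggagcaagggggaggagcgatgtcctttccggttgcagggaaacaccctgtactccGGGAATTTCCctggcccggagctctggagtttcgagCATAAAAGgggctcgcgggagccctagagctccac
Cxcl2: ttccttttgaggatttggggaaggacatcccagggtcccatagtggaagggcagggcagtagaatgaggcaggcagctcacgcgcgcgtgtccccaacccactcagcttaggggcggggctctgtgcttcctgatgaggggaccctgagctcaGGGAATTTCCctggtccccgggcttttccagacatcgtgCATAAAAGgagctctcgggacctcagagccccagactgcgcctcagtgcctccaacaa
Ccl3: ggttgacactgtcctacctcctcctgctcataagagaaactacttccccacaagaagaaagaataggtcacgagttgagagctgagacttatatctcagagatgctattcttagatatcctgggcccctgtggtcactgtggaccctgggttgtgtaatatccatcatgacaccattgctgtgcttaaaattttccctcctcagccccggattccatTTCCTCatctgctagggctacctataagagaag
Ccl12: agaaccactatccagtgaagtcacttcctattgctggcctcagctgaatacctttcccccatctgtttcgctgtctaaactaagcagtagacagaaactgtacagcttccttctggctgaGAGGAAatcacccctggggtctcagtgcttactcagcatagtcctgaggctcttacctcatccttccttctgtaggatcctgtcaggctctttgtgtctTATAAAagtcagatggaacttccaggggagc
A kappa-B motif, written as GGGA, any base and TTTCC and searched on both strands, occurred from 71 to 62 bases before the start of *Cxcl1* and from 97 to 88 bases before that of *Cxcl2*, and in 0.356% of 32851 such sequences. The same pair held CATAAAAG, a variant of the TATA box found in 0.889% of sequences. *Ccl12* held TATAAA (12.4% of sequences), and *Ccl3* and *Ccl12* held GAGGAA on either strand (23.3% of sequences), the core bound by the myeloid factor PU.1. The AP-1 motif TGANTCA (6.75%) was found in 0 of the 7 members with a sequence, and the C/EBP motif TTGCNNAA (9.56%) in *Cxcl13*. The motifs were chosen after the sequences had been read, and a match describes the letters and is not a measured site.

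*Cxcl12* encodes SDF-1, the homeostatic CXCR4 ligand of mesenchymal and vascular cells, and was low. It was spread over many stromal cells, where 5 cells held 5.44% of its UMIs, but less so in endothelial cells, where 5 held 40.2%. Of its 3609 UMIs, 65.7% were in stromal and 25.0% in basal cells. It stood at 925 UPM in secretory stromal cells (854–1001), 438 UPM in low-UMI stromal cells (364–522) and 304 UPM in fibroblasts (260–354). Fibroblasts, endothelial cells (298 UPM), myofibroblasts (294 UPM) and stem-like stromal cells (284 UPM) did not differ from their neighbors in this order beyond counting error. Basal cells followed at 192 UPM in low-UMI basal cells, 145 UPM in main basal cells and 136 UPM in *Notch2* basal cells. Macrophages, the main source of several other members, supplied very little of it, immune cells together holding 0.111% of its UMIs.

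*Cxcl13* encodes the CXCR5 ligand that draws B cells to follicles, and was close to the limit of these libraries with 78 UMIs in 12 cells. In macrophages its 35 UMIs (114 UPM) lay in 3 vas deferens cells, and in secretory stromal cells 34 of its 37 UMIs lay in 1 cell. Its values therefore rest on very few cells.

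*Cxcl14* encodes BRAK, a homeostatic CXC ligand without an agreed receptor that is made by fibroblasts and epithelia. It had 10316 UMIs, of which 96.0% were in stromal cells and 66.7% in the 153 fibroblasts. It stood at 12447 UPM in fibroblasts (12155–12745), against 622 UPM in stem-like stromal cells, 598 UPM in low-UMI stromal cells and 500 UPM in myofibroblasts. Fibroblasts were 20 times above the next population (18.5–21.6). In secretory stromal cells, which led for 5 other members, it stood at 340 UPM. Of its UMIs there, 130 were from 213 vas deferens cells and 100 from 5 corpus and 8 cauda cells. Outside the stroma its highest level among populations with at least 20 UMIs was 278 UPM in principal 4, a caput and corpus principal population, which could not be told from secretory stromal cells (ratio 1.22, 0.843–1.83).

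The share of cells with a UMI was counted after 1000 UMIs had been drawn at random from each cell, leaving out shallower cells. In secretory stromal cells (185 cells drawn, median depth 3065.5 UMIs over all 226) it was 100% for *Ccl2* (98.0–100), 91.4% for *Ccl7* (86.3–95), 88.6% for *Cxcl1* (83.2–92.8), 56.8% for *Cxcl2*, 49.7% for *Cxcl12* and 27.6% for *Ccl11* (21.3–34.6). In macrophages (89 cells drawn, median depth 2824.5 over all 104) it was 82.0% for *Cxcl2* (72.5–89.4), 73.0% for *Ccl3* (62.6–81.9), 65.2% for *Cxcl1*, 57.3% for *Ccl2*, 48.3% for *Ccl7* and 30.3% for *Ccl12* (21.0–41.0). *Cxcl14* was found in 64.8% of 122 fibroblasts (55.6–73.2), with a median depth of 3325 UMIs over all 153. Main clear cells, acid-secreting epithelial cells used as a background, had a median depth of 5327.5 UMIs over all 216. Only 25 of these were from the vas deferens library, which gave 213 of the 226 secretory stromal cells, so this background is mainly epididymal. Main clear cells gave 3.49% for *Cxcl1*, 1.74% for *Ccl2* and *Ccl7*, 1.16% for *Cxcl2* and *Cxcl14*, and 0 of 172 cells for each of the 5 others. The floor of 3 counts used for every 0 equals a share of 1.74% there and is not an interval limit. Without drawing, the largest change among these was in *Cxcl12*, from 49.7% to 66.4% of secretory stromal cells. Principal cells of the vas deferens, also without drawing, had *Ccl2* in 9 of 342 principal 12 and 37 of 396 principal 13 cells. It was found in 22 of 139 principal 14 and 12 of 332 principal 15 cells.

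**Figure D2:**
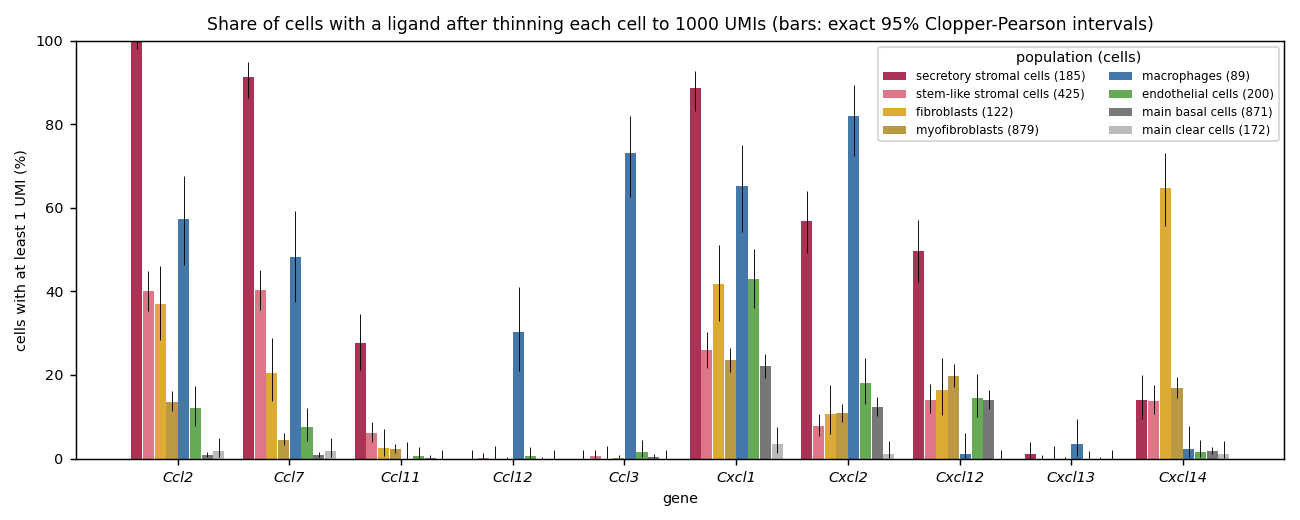
Percentage of cells with at least 1 UMI of each member after drawing 1000 UMIs per cell, in 8 populations, with 95% Clopper-Pearson intervals for counting error. *Ccl2* reached 100% of secretory stromal cells and 57.3% of macrophages, whereas main clear cells stayed at or below 3.49% for every member.

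Of the 10 members, 9 reached 20% of cells in at least 1 population with 10 or more such cells, against 24.3% of the 11614 genes, *Cxcl13* being the exception at 3.37% of macrophages. *Cxcl1* did so in 11 populations and *Ccl2* in 6, whereas *Ccl11* did so in 1. A *Cxcl12* share of 20% or more was found in 2 populations, with myofibroblasts just under it at 19.8%.

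Single cells carried several members at once. The median secretory stromal cell had UMIs of 4 of the 10 members, 76.8% of these cells had 4 or more, and 0 of 185 had none. Macrophages also had a median of 4, with 59.6% at 4 or more and 14.6% with none. Fibroblasts had a median of 2, and stem-like stromal cells, myofibroblasts and endothelial cells a median of 1. Of main basal cells, 59.8% had none.

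For several pairs, the share of cells with the one member was higher among cells with the other. *Ccl7* was found in 62.4% of stem-like stromal cells with a *Ccl2* UMI and in 25.5% of those without, and in macrophages the shares were 72.5% and 15.8%. *Cxcl2* was found in 30.9% of myofibroblasts with a *Cxcl1* UMI and in 4.61% of those without, and in main basal cells in 32.8% and 6.63%. In secretory stromal cells 63.4% of *Cxcl1*-positive cells had *Cxcl2*, against 1 of 21 without *Cxcl1*. Pairs on different chromosomes did so too. *Cxcl1* was found in 52.5% of myofibroblasts with *Ccl2* and in 19.0% of those without, and in macrophages *Cxcl2* was found in 96.9% of cells with *Ccl3* and in 41.7% of those without. *Ccl2* and *Cxcl14* did not show this pattern. *Cxcl14* was found in 55.6% of fibroblasts with *Ccl2* and in 70.1% of those without, and in 13.5% and 14.1% of stem-like stromal cells. All cells were drawn to the same depth, and cells of a population come from different libraries, whose part in these shares was not tested.

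Across the 34 populations, the genes whose levels most resembled each member were taken by Pearson's r of log2(UPM + 10). The populations share 4 libraries and were clustered on these counts, so that r is a description only. *Ccl2* and *Ccl7* were closest to each other (r = 0.96), as were *Cxcl1* and *Cxcl2* (r = 0.88). *Ccl12* was close to the myeloid genes *Ccl6* and *Cybb* (r = 0.98 each), and *Ccl3* to *Ccl12* (r = 0.98), *Ccl4* and *Cybb*. *Ccl2* and *Ccl7* were followed by genes of the interferon response, *Ifi203* and *Gbp5* for *Ccl2* and *Ifit3* and *Ifi203* for *Ccl7* (r = 0.87 each). *Ccl11* was closest to *Ms4a4d* (r = 0.93), *Gfpt2* and *Wisp1*, *Cxcl12* to *Adamts1* (r = 0.92), *Oaf* and *Col16a1*, and *Cxcl14* to *Pdgfrl* (r = 0.82), *Tmem100* and *Mrc2*. After *Cxcl2*, *Cxcl1* was closest to *Vcam1* and *Ier3*, and *Cxcl2* to *Dse* and *Gbp3* after *Cxcl1*. *Cxcl13*, with its few cells, was closest to *Cxcl3* (r = 0.91), *H2-M2* and *Gpr85*.

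The libraries were then compared within cell types, since the study asked how cells differ along the duct. A member was counted as restricted to a library where that library's cells of a type held 20 or more of its UMIs and every other library was lower by 4-fold or more. In stromal cells 6 of the 8 members with enough UMIs were restricted, against 1.91% of 8848 genes. *Ccl2*, *Ccl7*, *Ccl11*, *Cxcl2* and *Cxcl13* were restricted to the vas deferens, against 1.15% of genes, and *Cxcl14* to the cauda. Of the 226 secretory stromal cells, however, 213 were from the vas deferens library, and without this population the count fell to 3, *Ccl7*, *Ccl11* and *Cxcl14*, against 1.96% of genes. The *Cxcl13* call rested on 37 UMIs, 34 of them in 1 cell. For *Cxcl14*, fibroblasts held 5465 of the 7055 cauda UMIs. They were 74 of 289 stromal cells in the cauda and 39 of 1015 in the vas deferens.

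*Ccl2* in all stromal cells stood at 286 UPM for the caput, 575 for the corpus, 1236 for the cauda and 9411 for the vas deferens. The vas deferens level was 13.3 times that of the 3 epididymal libraries together (12.8–13.8), and 3.92 times (3.72–4.13) without secretory stromal cells. Stem-like stromal cells, of which 517 of 549 were from the vas deferens, held 3252 of the 3971 vas deferens UMIs that remained. The direction then depended on the population. In myofibroblasts *Ccl2* stood at 196, 336, 308 and 920 UPM along the duct, with the vas deferens above the epididymis by 3.10-fold (2.79–3.45). The vas deferens was lower in fibroblasts, at 0.627 of the epididymal level (0.523–0.747), in stem-like stromal cells (0.802, 0.695–0.931) and in low-UMI stromal cells (0.407, 0.192–0.766). In secretory stromal cells the 13 epididymal cells were at 32385 UPM, not separable from 29975 UPM in the vas deferens (ratio 0.926, with 1 in its interval).

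*Ccl7* had larger differences between libraries. In all stromal cells it stood at 10.8, 92.4, 549 and 4360 UPM from the caput to the vas deferens, and the vas deferens over epididymis ratio was 20.8 (19.4–22.3), or 9.51 (8.71–10.4) without secretory stromal cells. Myofibroblasts alone gave 5.27, 24.9, 89.2 and 294 UPM in the same order, so that each library was above the one before it and the vas deferens exceeded the epididymis by 8.19-fold (6.45–10.4). The myofibroblast levels came from 179 UMIs in the vas deferens and 116 in the epididymis. The caput value rests on very few, since all caput stromal cells together held 9 *Ccl7* UMIs, in 4 cells. In stem-like stromal cells, of which 517 of 549 were from the vas deferens and which held 2466 of the 2745 vas deferens UMIs outside secretory stromal cells, the ratio was 1.76 (1.39–2.28). In fibroblasts it was 0.753 (0.591–0.949).

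Among stromal cells *Ccl11* was found mainly in the vas deferens library, at 628 UPM against 5.97, 2.03 and 15.3 UPM in the caput, corpus and cauda. The ratio to the epididymis was 92.5 (63.3–141), and 78.4 (42.1–165) without secretory stromal cells. In myofibroblasts 120 UMIs were found in the vas deferens (197 UPM), 3 in the caput and 0 in both the corpus and the cauda. Fibroblasts of the vas deferens had 44 UMIs (359 UPM) and low-UMI stromal cells 25 UMIs (718 UPM), against 0 in the epididymis. With the epididymis at the floor of 3 UMIs, the ratios were 51.5 (16.5–260) and 59.0 (17.997–305). Few fibroblasts carried *Ccl11*. Among fibroblasts of all libraries drawn to the same depth, it was found in 2 of 45 with *Ccl2* and 1 of 77 without. The fibroblast ratio may therefore rest on few cells, and its interval does not cover the spread between cells. Secretory stromal cells differed less, with 1843 UPM in the vas deferens and 17 UMIs (837 UPM) in the epididymis (ratio 2.20, 1.37–3.79). In stem-like stromal cells 7 epididymal UMIs (132 UPM) and 178 vas deferens UMIs (164 UPM) gave a ratio of 1.24 (0.587–3.12).

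**Figure D3:**
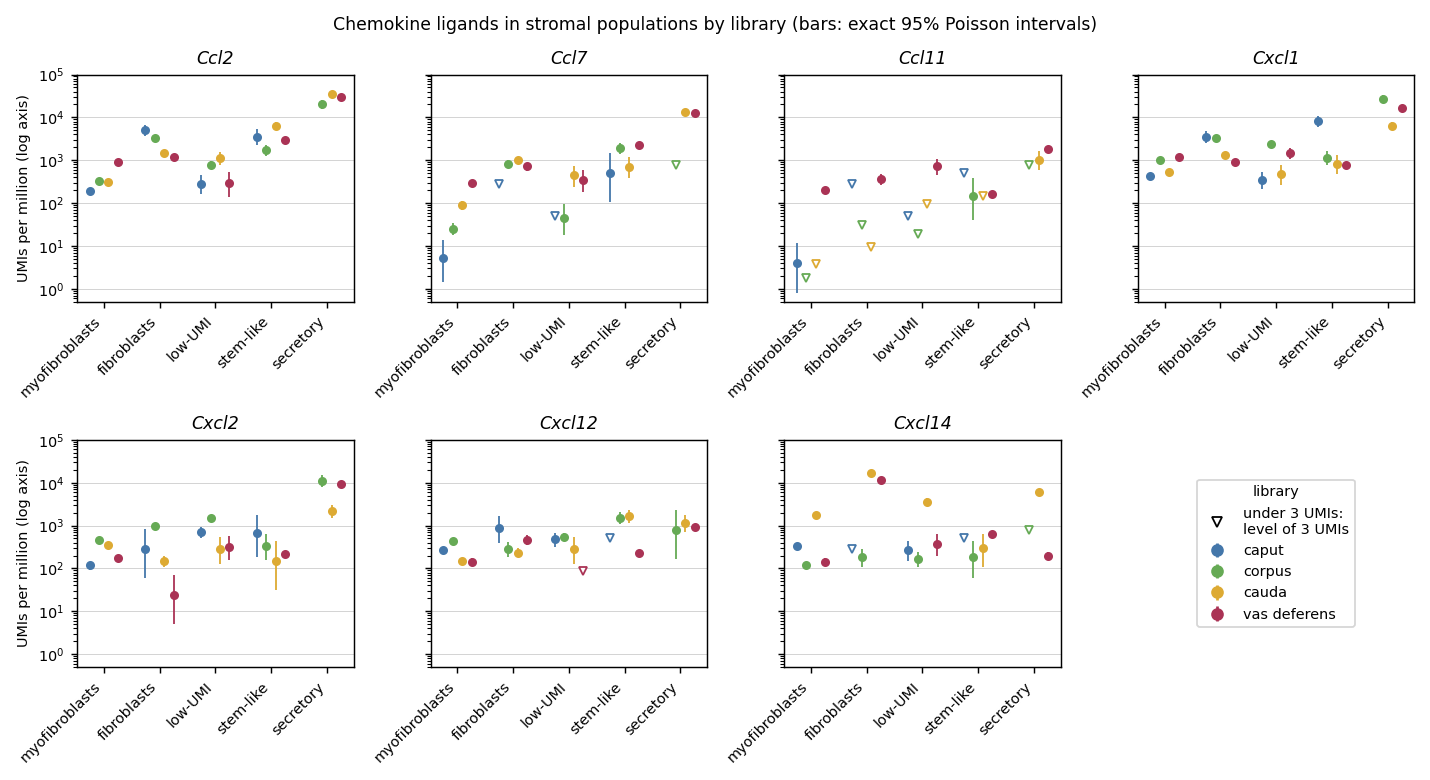
Levels of 7 members (UPM, log axis) in 5 stromal populations by library, with 95% Poisson intervals; open triangles mark libraries with fewer than 3 UMIs, drawn at the level of 3 UMIs. *Ccl11* in myofibroblasts is measured at 197 UPM in the vas deferens, and *Cxcl14* in fibroblasts at 17063 UPM in the cauda against 181 UPM in the corpus.

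*Cxcl14* divided the fibroblasts by library. It stood at 17063 UPM in 74 cauda fibroblasts (16613–17521), 11398 UPM in 39 vas deferens fibroblasts (10807–12012) and 181 UPM in 36 corpus fibroblasts (107–286). The 4 caput fibroblasts had 0 UMIs, where the floor of 3 UMIs equals 286 UPM. The cauda was 94.2 times above the corpus (59.6–159) and 1.5 times above the vas deferens (1.41–1.59). The cauda also had the highest level in myofibroblasts, at 1747 UPM against 117 to 343 UPM, and in low-UMI stromal cells, at 3596 UPM against 163 to 374 UPM. Stem-like stromal cells went the other way, with 642 UPM in the vas deferens and 208 UPM (11 UMIs) in the epididymis (ratio 3.09, 1.72–6.22). Secretory stromal cells had 198 UPM in the vas deferens and 4922 UPM in the epididymis (ratio 0.040, 0.031–0.053). The epididymal value there came from 100 UMIs in 5 corpus and 8 cauda cells.

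*Cxcl1* and *Cxcl2* also depended on the secretory stromal cells, as did *Cxcl13*, which had 0 stromal UMIs outside them. In all stromal cells *Cxcl1* was 5.14 times higher in the vas deferens than in the epididymis (4.96–5.33) and *Cxcl2* 6.25 times (5.92–6.60). Without secretory stromal cells the ratio was 0.981 for *Cxcl1* (0.926–1.04) and 0.482 for *Cxcl2* (0.428–0.541). Myofibroblasts gave *Cxcl2* levels of 117, 453, 345 and 173 UPM from the caput to the vas deferens, highest in the corpus. *Cxcl12* outside secretory stromal cells stood at 0.617 of the epididymal level in the vas deferens (0.550–0.691), and the populations differed. Stem-like stromal cells were lower there, at 228 against 1437 UPM (ratio 0.159, 0.122–0.208), as were myofibroblasts (0.437, 0.347–0.545), whereas fibroblasts were higher, at 458 against 260 UPM (1.76, 1.25–2.44).

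In immune cells 0 of 7 members with enough UMIs were restricted to a library, against 0.792% of 1894 genes, while 1 passed at a 2-fold threshold, and no test across replicates was possible. Levels still differed. Macrophages of the 3 epididymal libraries together had more *Cxcl2*, *Ccl3*, *Cxcl1* and *Ccl12* than those of the vas deferens, and less *Ccl7*. *Cxcl2* stood at 48714 UPM (caput, 4 cells), 42922 UPM (corpus, 17 cells), 27020 UPM (cauda, 15 cells) and 14096 UPM (vas deferens, 68 cells). The vas deferens was at 0.405 of the epididymal level for *Cxcl2* (0.385–0.425), 0.401 for *Ccl3* (0.370–0.435), 0.522 for *Cxcl1* (0.479–0.568) and 0.492 for *Ccl12* (0.402–0.601), but at 1.19 for *Ccl2* (1.05–1.35) and 1.5 for *Ccl7* (1.30–1.74). *Ccl12* was 3.27 times higher in the corpus than in the vas deferens (2.6–4.10) but lower in the cauda, at 353 against 946 UPM, and in *Trem2* macrophages the vas deferens was instead 3.27 times above the epididymis (2.16–4.98).

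**Figure D4:**
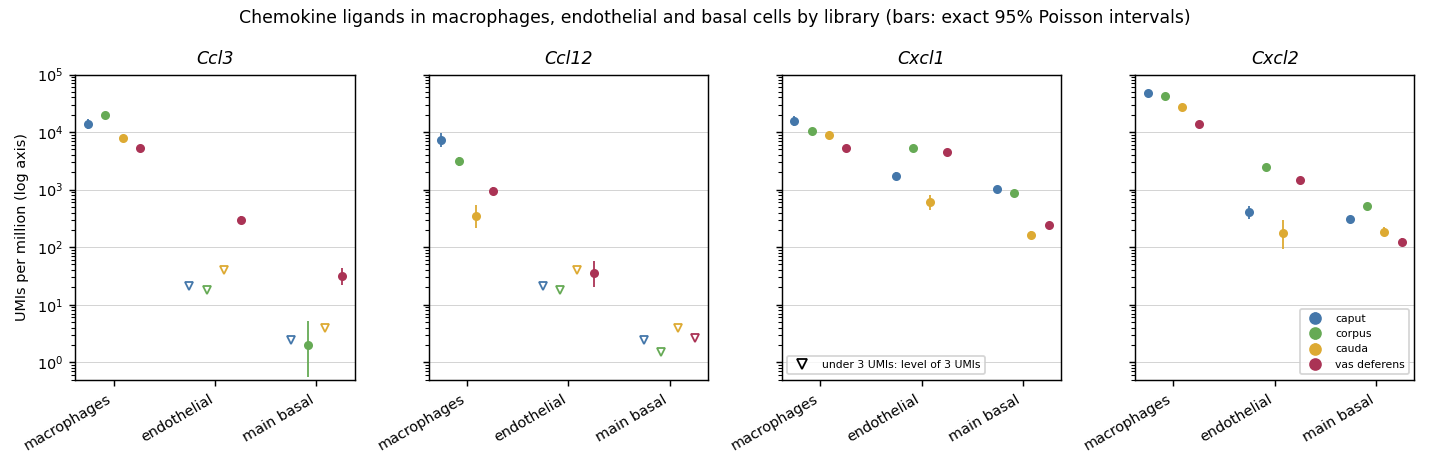
Levels (UPM, log axis) of *Ccl3*, *Ccl12*, *Cxcl1* and *Cxcl2* by library in macrophages, endothelial cells and main basal cells, with 95% Poisson intervals; open triangles mark libraries with fewer than 3 UMIs. In macrophages *Cxcl2* is lowest in the vas deferens at 14096 UPM, and in main basal cells *Cxcl1* is highest in the caput at 1022 UPM.

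Endothelial cells had 1 restricted member of 6, *Ccl3* in the vas deferens, against 1.11% of genes, which rested on the 5 cells with macrophage markers described above. *Cxcl1* in endothelial cells stood at 1758 UPM for the caput, 5385 for the corpus, 602 for the cauda and 4449 for the vas deferens, and *Cxcl2* at 402, 2428, 174 and 1493 UPM, the same order of libraries. The corpus exceeded the caput by 3.06-fold for *Cxcl1* (2.66–3.54) and 6.03-fold for *Cxcl2* (4.56–8.11). These levels came from 50 caput, 39 corpus, 12 cauda and 144 vas deferens cells. Of all endothelial UMIs, 5 cells held 22.3% for *Cxcl1* and 54.0% for *Cxcl2*, a spread between cells that the intervals do not cover. *Cxcl12* was lowest in the vas deferens at 154 UPM, 0.327 of the epididymal level (0.245–0.434).

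In basal cells 3 of 9 members were restricted to a library, all to the vas deferens, against 1.86% of genes for any library and 0.731% for the vas deferens. These were *Ccl2*, *Ccl7* and *Ccl11*, and few cells carried them. The count was 2 without the *Notch2* basal cells and 4 without called doublets. All 46 *Ccl11* UMIs and 73 of 75 *Ccl7* UMIs of the *Notch2* basal cells were in the same 2 vas deferens cells, which had 24 UMIs of stromal markers and 0 of basal markers. In main basal cells 63 of 88 *Ccl2* UMIs were in 4 cells, of which 2 were called doublets.

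Basal cells proper carried *Cxcl1*, *Cxcl2* and *Cxcl12*. *Cxcl1* in main basal cells stood at 1022 UPM for the caput (966–1081), 885 for the corpus (844–928), 164 for the cauda and 244 for the vas deferens. Its level in the vas deferens was 0.311 of that in the epididymis (0.274–0.352), and that of *Cxcl2*, which stood at 313, 522, 187 and 123 UPM in the same order, was 0.314 (0.262–0.374). *Cxcl12* had another order, with the caput (210 UPM) and the vas deferens (246 UPM) both above the corpus (75.4 UPM) and the cauda (70.8 UPM).

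Principal cells, the secretory epithelium, held 8.69% of *Cxcl1* and 7.06% of *Cxcl2* UMIs and 2.35% or less of each other member except *Cxcl13* (5.13%). *Cxcl1* was the 1 of 5 members restricted to a library, the vas deferens, against 6.12% of 9854 genes. It stood at 40, 96.6, 92.0 and 461 UPM from the caput to the vas deferens, and *Cxcl2* was 5.83 times higher in the vas deferens than in the epididymis (5.05–6.75). Principal populations differ between regions. Principal 11, with cells in both the cauda and the vas deferens, gave 224 and 1111 UPM of *Cxcl1*, but 79 of its 118 vas deferens UMIs were in 1 cell and 10 of 100 cells held any. Principal 9, also found in both, gave 69.2 UPM in the cauda and 38.0 UPM in the vas deferens, from 18 and 5 UMIs. *Cxcl14* was lower in vas deferens principal cells, at 0.0640 of the epididymal level (0.0345–0.110). *Ccl2* in main clear cells had 54 UMIs, of which 51 were in 2 cells called doublets.

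Other genes of the pathway were read from lists by the same rule. Of 25 further chemokine ligands, 17 had at least 20 UMIs in a population, and 13 of these were highest in an immune population. *Ccl4*, a close relative of *Ccl3*, reached 32705 UPM in macrophages, above every member there, and *Xcl1* 544 UPM in T cells. The exceptions outside the immune cells were *Cxcl5*, an ELR ligand like *Cxcl1*, at 216 UPM in secretory stromal cells, *Ppbp* at 24.9 UPM in main basal cells, where 1 cell held 69 of its 127 UMIs, *Cx3cl1*, highest in endothelial cells, and *Ccl27a*, highest in muscle 2 cells.

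Most receptors were low. Of 21 chemokine receptors, 10 had at least 20 UMIs in a population, 7 of them highest in immune cells. The receptor of *Ccl2*, *Ccl7* and *Ccl12*, *Ccr2*, was highest in T cells at 272 UPM and stood at 68.5 UPM in macrophages. *Ccr1*, a receptor of *Ccl3* and *Ccl7*, reached 176 UPM in macrophages. *Cxcr4*, the receptor of *Cxcl12*, stood at 84.8 UPM in macrophages, and the scavenging receptor *Ackr3* at 89.8 UPM in endothelial cells, beside *Ackr1*, which binds many inflammatory chemokines on venules, at 244 UPM. *Ccrl2*, *Ccr7*, *Cxcr6* and *Ackr4* also had enough UMIs, led by *Ccrl2* at 2088 UPM in *Trem2* macrophages, 2011 UPM in basal-macrophage cells and 1956 UPM in macrophages. The receptors of the neutrophil, eosinophil and B cell ligands were near 0 in all cells together, with 3 UMIs of *Cxcr2*, 1 of *Ccr3* and 2 of *Cxcr5*.

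**Figure D5:**
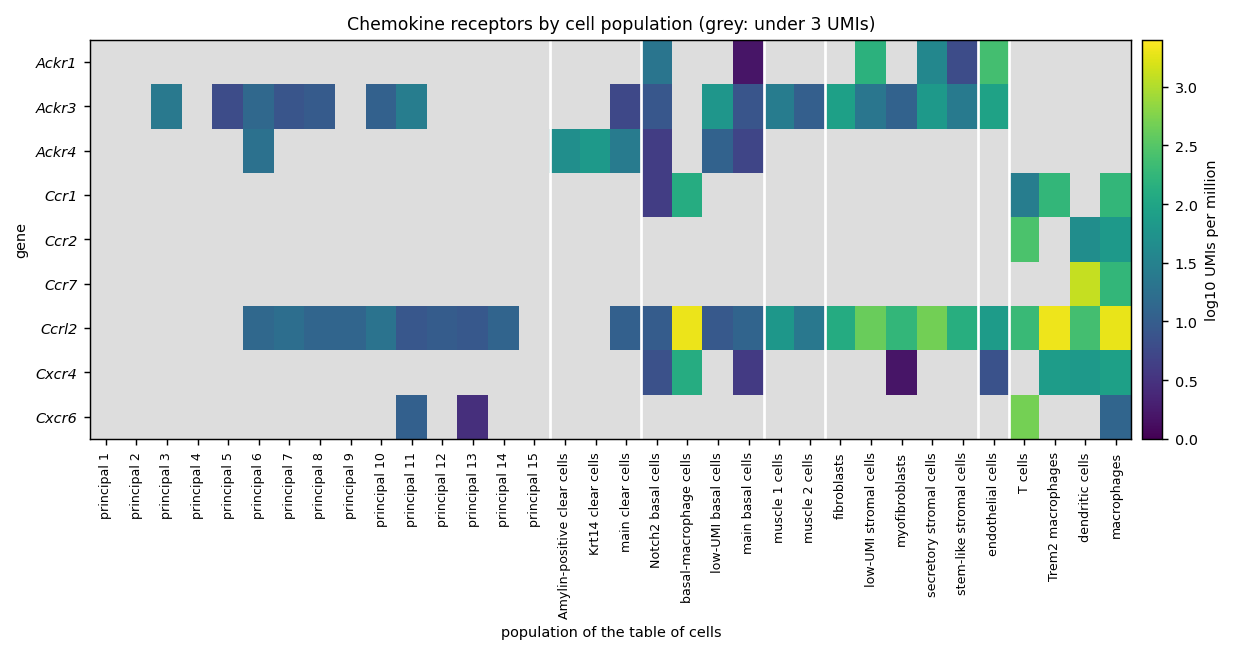
Levels of 9 of the 10 chemokine receptors with at least 20 UMIs in a population (rows) in the 34 populations (columns), as log10 UPM by color; grey squares held fewer than 3 UMIs. *Ccrl2* in the 3 macrophage-marked populations (1956 to 2088 UPM) and *Ccr7* in dendritic cells (1260 UPM) are the highest values.

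Lists of genes that respond to stimulation or handling were read beside the members. The 12 genes of NF-κB feedback, which like many inflammatory chemokines are induced by this factor, summed to 10555 UPM in macrophages, 8734 in *Trem2* macrophages, 8081 in endothelial cells, 7614 in secretory stromal cells and 3815 in main basal cells. Of these genes, 8 were highest in an immune population, 3 in a stromal and 1 in an endothelial population. Their median was 297 UPM in macrophages, against 9.78 UPM over all genes there, and 210 against 13.3 UPM in secretory stromal cells. By library their sum in macrophages ran from 10127 to 11708 UPM, a far smaller range than that of *Cxcl2*.

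The 20 immediate early and heat shock genes, which rise during tissue dissociation, were highest in stromal (6), basal (6), principal (4), endothelial (2), immune (1) and clear (1) populations. Their sum moved with *Cxcl2* among macrophages, at 27523 UPM for the caput, 27304 for the corpus, 13678 for the cauda and 9171 for the vas deferens. In main basal cells it was 26954, 15461, 13880 and 20117 UPM, so that the vas deferens, low in *Cxcl1* and *Cxcl2*, was not low in these genes. Myofibroblasts had their highest sum in the caput (35789 UPM) and their lowest in the vas deferens (14389 UPM), whereas *Cxcl2* was highest in the corpus. The part of dissociation in the chemokine levels was not tested.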

How the data were processed

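The deposited values were whole UMI counts per gene and cell. The authors aligned 3′ reads to mm10 with HISAT2 2.0.4 after bcl2fastq, counted UMIs on RefSeq genes with ESAT without reads that map to several places, kept barcodes within limits of total UMIs and subtracted ambient RNA with a modified SoupX. Library, cell type and population were taken from the authors' table of cells. The members and all lists were chosen with earlier results of these data known. From there, UMIs were summed per group and divided by the group's total. Genes given by name are the 10 members, for each the 3 genes with the highest r over the 34 populations among genes with at least 20 UMIs in a population, other ligands highest in a population among their list, and receptors with at least 20 UMIs. Groups under 3 UMIs were raised to 3 UMIs for ratios, and libraries with fewer than 10 cells were left out of ratios between single libraries. Ratios of the vas deferens to the epididymis sum all cells of the 3 epididymal libraries. Doublets were called from simulated doublets and nearest neighbors at a set rate of 0.8% per 1000 cells. As a mean over libraries the calls recovered 44.9% of simulated doublets, and 60.3% of those made from 2 cell types. Cells not called can therefore still be doublets. Some genes and sequences that these rules name are not reported here. The rule of restriction was tested on simulated data. Alternatives were folds of 2 and 8, other UMI minimums, means over cells, deeper cells, doublets left out, other drawing depths and each library left out. Tables were handled with pandas 2.3.3 and numpy 2.4.6 in Python 3.11.15, intervals came from scipy 1.17.1, neighbors from scikit-learn 1.9.0 and figures from matplotlib 3.10.9.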

Additional observations from a re-analysis of the deposited data

Results flagged for a closer look

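*Cxcl2* and *Cxcl14* had differences between the vas deferens and the epididymis that ran in opposite directions in different cell types. *Cxcl2* was higher in the vas deferens in principal cells (ratio 5.83) and in stromal cells (6.25), and lower in basal cells (0.273) and in immune cells (0.446). Without secretory stromal cells the stromal ratio was 0.482. *Cxcl14* was higher in the vas deferens in basal cells (4.33) and lower in principal cells (0.0640). These ratios rested on few UMIs, 52 in the vas deferens and 43 in the epididymis for basal cells, and 14 and 228 for principal cells. Principal populations also differ between regions. With 1 library per region, the difference between cell types was not tested.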

How the results depend on the processing

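Of the counts over the members recomputed under the alternatives, 85 values stayed within 1.5 times the reported count and 18 did not. In stromal cells the 6 members restricted to a library became 1 at an 8-fold threshold and 3 without secretory stromal cells, an alternative chosen after seeing the data. Leaving out a library in turn gave 2 to 7, with 2 without the vas deferens. In immune cells the count of 0 became 1 at 2-fold. In endothelial cells the count of 1 became 3 at 2-fold and 0 at 8-fold, and 1 to 2 with a library left out (2 without the corpus, the cauda or the vas deferens). In basal cells the count of 3 became 5 at 2-fold and 1 to 5 with a library left out (5 without the corpus, 1 without the vas deferens). In principal cells the count of 1 became 0 as a mean over cells, 4 at 2-fold, 0 at 8-fold, 2 in cells with at least 1000 UMIs, and 1 to 4 with a library left out (2 without the caput, 4 without the corpus). The cause was not tested where samples or thresholds do not set it. Over single members, 90 values stayed near the reported ones and 30 moved. Without the vas deferens library, *Ccl11* in secretory stromal cells fell to 837 UPM, *Cxcl1* there to 10237 UPM and *Cxcl13* in macrophages to 0, while *Ccl3* and *Cxcl2* in macrophages stood at 12990 and 34822 UPM. Without the cauda, *Cxcl14* in fibroblasts stood at 6083 UPM. As a mean over cells, *Ccl12* in basal-macrophage cells was 1047 UPM. No paired analysis was possible because each region has 1 library and no result comes from a test. *Cxcl13* is limited by its 78 UMIs.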
